A study of Mus musculus with 12 samples.

Results

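The 10 genes described here encode the core of transforming growth factor beta (TGF-beta) signalling outside and at the surface of the cell: the ligands Tgfb1, Tgfb2 and Tgfb3, the receptors Tgfbr1, Tgfbr2 and Tgfbr3, the latent binding proteins Ltbp1, Ltbp2 and Ltbp3, and Tgfbi, a secreted matrix protein named for its induction by TGF-beta. They were picked by gene symbol, and all 10 were found among the 55487 genes of the table. All 10 were also among the 14202 genes that had at least 1 CPM (counts scaled to 1000000 reads per library) in at least 3 of 12 libraries. The lowest value of any of the 10 genes in any library was 2.21 CPM, for Tgfbi.

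Stranded poly(A) RNA-seq libraries were made from primary vascular smooth muscle cells (VSMCs) of WT and TIGAR KO mice. The mice were 4 to 6 weeks old, and the cells were used at passages 4 to 6 in serum-containing DMEM/F12 medium. There were 4 groups of 3 libraries: WT without PDGF-BB, WT with PDGF-BB, TIGAR knockout without PDGF-BB and TIGAR knockout with PDGF-BB. PDGF-BB, a growth factor and mitogen for smooth muscle, was given at 40 µg/L for 6 h. The strain, the sex, the vessel, the knockout allele and the treatment given to the cells without PDGF-BB are not given in the sources used here. Whether libraries in a group stem from different mice or dishes is not stated, and p-values therefore measure only the spread between these samples, which may be technical.

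TGF-beta is secreted in a latent form, in which the mature ligand is held by its own propeptide. A latent TGF-beta binding protein (LTBP) is joined to that propeptide and ties the complex to the extracellular matrix, from which integrins, proteases or thrombospondin can release the active ligand. Active ligand binds the type II receptor (Tgfbr2), which recruits and phosphorylates the type I receptor (Tgfbr1), and the type I receptor phosphorylates SMAD2 and SMAD3. The co-receptor betaglycan (Tgfbr3) presents ligand, TGF-beta2 in particular. In the vessel wall this pathway is known for its control of the contractile state of smooth muscle and of matrix production, and inherited defects in it cause aneurysms of the aorta.

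Library totals ranged from 14953807 to 21698488 reads, so that 1 read was worth 0.0669 CPM at the lowest depth. Replicate 1 of WT with PDGF-BB stood apart. Its root mean square log2 difference from its own group was 0.416, and that of the remaining 11 libraries ran from 0.143 to 0.293. Across the 14202 genes, this difference fell with exon length (Spearman rho -0.58), against 0.43 and 0.53 for the other 2 of its group and -0.25 to 0.17 for the 9 libraries of the other groups. Those other 2 were set against a group that includes replicate 1, so their values are not independent of it. Calls of the 10 genes that change without replicate 1 of WT with PDGF-BB are given both ways. Tigar, the targeted gene, went against the label: it stood at 7.50 ± 0.955 CPM (SD, n = 3) in untreated WT cells and 11.2 ± 1.12 CPM in untreated cells labelled knockout, and at 11.9 ± 0.659 and 15.2 ± 0.888 CPM with PDGF-BB, higher in the labelled knockout in both (limma adjusted p = 0.00209 and 0.0292). The second call ended with no filter and without replicate 2 of WT with PDGF-BB or any one library of the labelled knockout with PDGF-BB, at adjusted p from 0.0551 to 0.107. The table has a single value per gene and does not show which exons were read, so the genotype is called the labelled knockout throughout, and every direction between genotypes is by label. A genotype label and the cell isolate it came from cannot be told apart here.

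Of 10 smooth muscle markers, 9 passed the filter. Acta2 was at 1133 to 2863 CPM and Myh11 at 28.0 to 90.0 CPM over the 12 libraries, whereas Tagln was at only 2.98 to 7.12 CPM, Des at 0.356 to 0.953 CPM and Myocd at 0.182 to 3.21 CPM. Markers of other cells moved with the genotype label. The summed level of 10 endothelial markers was 151 to 163 CPM in untreated WT, 117 to 121 in WT with PDGF-BB, 722 to 833 in the untreated labelled knockout and 662 to 689 in the labelled knockout with PDGF-BB, and all 9 that passed the filter, Pecam1, Cdh5 and Tie1 among them, were higher in the labelled knockout in both conditions. Of 9 tested macrophage markers, 9 were lower in the labelled knockout without PDGF-BB and 8 with it, and the summed level of the 11 on the list was 36.6 to 46.4 against 155 to 167 CPM without PDGF-BB and 35.7 to 39.9 against 117 to 168 CPM with it. None of the markers of these 2 lists was at 0 in a whole group. The sum of 10 fibroblast markers was 637 to 662 CPM in untreated WT, 489 to 507 in WT with PDGF-BB, 1401 to 1663 in the untreated labelled knockout and 994 to 1018 in the labelled knockout with PDGF-BB, but of the 8 tested 2 were higher and 2 lower in the untreated labelled knockout, and Col14a1 alone ran from 117 to 1406 CPM. The summed level of 5 Schwann cell markers was 46.6 to 54.9 CPM in untreated WT and 17.4 to 19.3 in the untreated labelled knockout, with 3 of 3 tested lower, and 36.1 to 57.0 and 13.3 to 14.2 CPM with PDGF-BB, with 1 of 3 lower and Sox10 at 0 in all 12 libraries. The sum of 6 epithelial markers was at most 4.01 CPM in WT and 14.7 to 19.4 CPM in the labelled knockout, and that of 5 adipocyte markers at most 5.47 and 5.37 to 8.43 CPM, with the 1 tested marker of each list, Krt18 and Fabp4, higher by label in both conditions. Of the 9 tested smooth muscle markers 4 were higher in the labelled knockout without PDGF-BB and 7 with it. The part of these cell markers in the genotype differences below was not tested, and in bulk RNA fewer cells of a type and less RNA per cell cannot be told apart.

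PDGF-BB moved the 3 ligands in opposite directions: Tgfb1 rose while Tgfb2 and Tgfb3 fell, in WT and in the labelled knockout alike. Ltbp2 and Ltbp3 fell in both genotypes. Between genotypes the largest differences were in Tgfbi and Ltbp2, which were higher, and in Tgfbr3, which was lower in the labelled knockout, and Tgfbr2 and Ltbp1 were lower too. The test was limma-trend on log2(CPM + 1), 2-sided, in a single fit of all 12 libraries, with Benjamini-Hochberg adjustment over all 14202 genes, and a gene was called at an adjusted p under 0.05. All changes below are on this log2(CPM + 1) scale unless a CPM ratio is named.

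With PDGF-BB in WT, 1 of the 10 genes was called higher and 5 lower, beside 25% of all tested genes called higher and 34.4% called lower. Their median change was -0.18, against -0.08 for all tested genes. These counts moved with the scaling and tool: TMM scaling (by the trimmed mean of log ratios between libraries) gave 2 higher and 3 lower, edgeR 3 and 3, and DESeq2 2 and 4. In the labelled knockout, 1 was called higher and 5 lower, beside 17.6% and 24.8% of all tested genes, and the median was -0.29 against -0.07. Between genotypes without PDGF-BB, 6 were called higher and 3 lower in the labelled knockout, beside 9.15% and 24.8% of all tested genes, with a median of 0.32 against -0.13. With PDGF-BB, 4 were called higher and 3 lower, beside 10.6% and 26.6%, with a median of 0.08 against -0.14. For the interaction, which is the PDGF-BB response in the labelled knockout minus that in WT, 1 was called positive, beside 2.25% of all tested genes, and 0 negative, beside 1.68%. At an unadjusted p under 0.05 limma-trend had 3 of the 10 negative, and edgeR and DESeq2 called 0 negative. The 4 comparisons share groups of libraries, so their counts are not independent of each other.

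Without replicate 1 of WT with PDGF-BB, 8 of the 10 genes were called for PDGF-BB in WT, 7 for PDGF-BB in the labelled knockout, 9 and 7 between genotypes, and 3 for the interaction. Calls over all tested genes rose as well. For PDGF-BB they were 9018 in WT and 8065 in the labelled knockout, against 8431 and 6025 with all libraries. Between genotypes they were 7098 without PDGF-BB and 5879 with it, against 4823 and 5284. The interaction had 1548 calls, against 557. Under TMM scaling the median of all genes between genotypes without PDGF-BB moved up by 0.12. The share of higher genes among all called genes then went from 42.1% to 50.1% for PDGF-BB in WT and from 41.5% to 49.3% in the labelled knockout. Between genotypes it went from 27.0% to 48.7% without PDGF-BB, from 28.5% to 47.4% with it, and from 57.3% to 46.7% for the interaction.

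**Figure D1:**
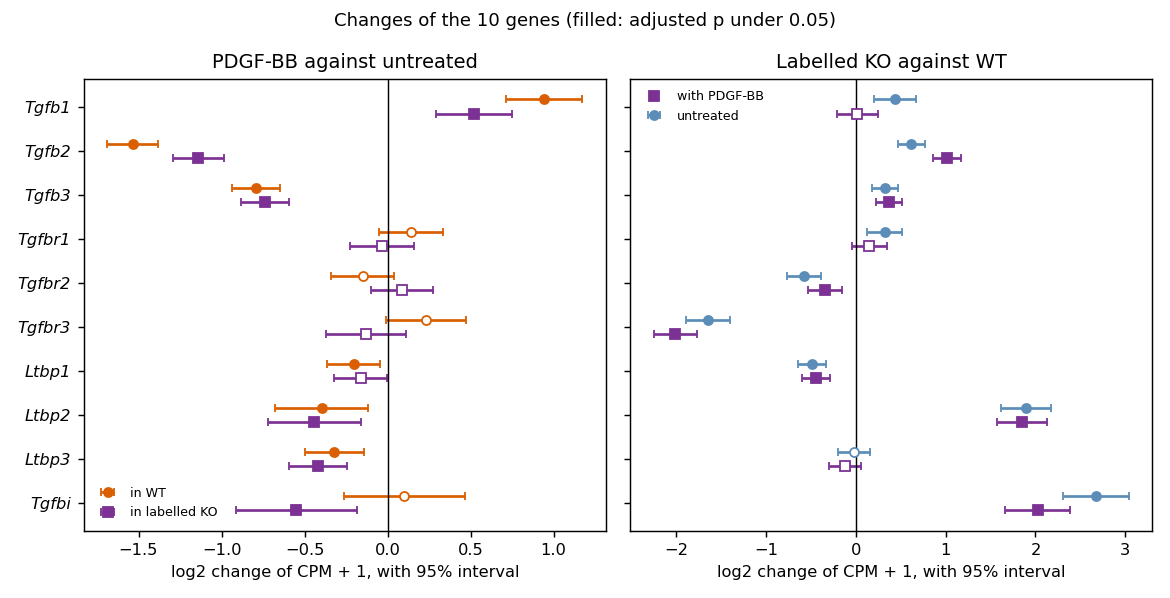
Log2 change of CPM + 1 with its 95% interval for each of the 10 genes, for PDGF-BB against untreated in each genotype (left) and for the labelled knockout against WT in each condition (right). Filled symbols mark an adjusted p under 0.05. Tgfb1 lies to the right and Tgfb2 and Tgfb3 to the left for PDGF-BB, and Ltbp2 and Tgfbi lie far right and Tgfbr3 far left between genotypes.

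Levels of different genes can be set side by side only per length, here as CPM per kilobase of the exon length in the deposited table. In untreated WT cells Ltbp1 was highest at 298 ± 9.79 CPM per kilobase (SD, n = 3), followed by Ltbp3 at 187 ± 6.32 and Tgfb2 at 72.5 ± 3.00. Ltbp2 at 38.0 ± 2.44 and Tgfbr2 at 37.1 ± 0.641 overlapped, and below them came Tgfb3 at 26.6 ± 1.65, Tgfb1 at 18.4 ± 0.634, Tgfbr3 at 11.4 ± 0.347, Tgfbr1 at 10.4 ± 0.620 and Tgfbi at 0.992 ± 0.246. In the untreated labelled knockout Ltbp2 had moved up to the third place at 142 ± 22.2 CPM per kilobase (the second with all annotated exons joined), and Tgfbr3 was the lowest of the 10 at 3.55 ± 0.459. Ltbp1 was first in all 4 groups, also with the length of the longest transcript or of all annotated exons joined.

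The order of the ligands depended on the length used. With the deposited length, Tgfb1 in WT with PDGF-BB was at 35.8 ± 1.28 CPM per kilobase against 24.9 ± 2.00 for Tgfb2, and with the longest transcript it was at 30.3 against 24.9. With all exons of the gene joined it was at 15.4 against 22.0 for Tgfb2, the opposite order. In the other 3 groups Tgfb2 was above Tgfb1 with each of the 3 lengths.

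Tgfb1 (ENSMUSG00000002603) lies on the plus strand of chromosome 7 at 25687002 to 25705077 in GRCm38. It stood at 41.4, 38.6 and 39.9 CPM in replicates 1 to 3 of untreated WT and at 80.7, 75.1 and 77.8 CPM in WT with PDGF-BB. The labelled knockout had 68.1, 48.9 and 48.5 CPM untreated and at 76.1, 78.5 and 81.7 CPM with PDGF-BB. Every library with PDGF-BB was above every untreated library, and replicate 1 of the untreated labelled knockout was well above the other 2 of its group. The rise was 0.94 in WT (SE 0.11, limma adjusted p = 6.68e-06), a CPM ratio of 1.95, and 0.52 in the labelled knockout (SE 0.11, adjusted p = 0.00147), a CPM ratio of 1.43. Without PDGF-BB the labelled knockout was higher by 0.44 (SE 0.11, adjusted p = 0.00616), and by 0.28 (adjusted p = 0.0077) without that replicate. With PDGF-BB the difference was 0.02, with a 95% interval of -0.21 to 0.25, and the groups overlapped. The interaction was -0.42, with a 95% interval of -0.74 to -0.10, and was not called (limma adjusted p = 0.141). With library weights it was called, at -0.27 (adjusted p = 0.0101) by the default estimator, which did not converge, and at -0.28 (adjusted p = 0.0314) gene by gene.

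Tgfb2 (ENSMUSG00000039239; chromosome 1, minus strand, 186622792 to 186705989), the isoform most in need of betaglycan for receptor binding, changed the most of the ligands. It stood at 388, 363 and 361 CPM in untreated WT and at 117, 137 and 129 CPM in WT with PDGF-BB. The labelled knockout had 599, 559.6 and 553 CPM untreated and at 252, 271 and 252 CPM with PDGF-BB. None of the 4 groups overlapped, and the order was the untreated labelled knockout, untreated WT, the labelled knockout with PDGF-BB and WT with PDGF-BB. The fall with PDGF-BB was -1.54 in WT (SE 0.07, limma adjusted p = 3.06e-09) and -1.14 in the labelled knockout (SE 0.07, adjusted p = 9.95e-08), so that 371 CPM became 127 and 571 CPM became 258. The labelled knockout was higher by 0.62 without PDGF-BB (SE 0.07, adjusted p = 1.91e-05) and by 1.02 in its presence (SE 0.07, adjusted p = 2.07e-07), a CPM ratio of 2.03.

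The interaction for Tgfb2 was 0.40 (SE 0.10, limma adjusted p = 0.0453), that is a smaller fall in the labelled knockout. This call was close to the threshold and ended in 12 of 24 alternatives, over which the value ran from 0.30 to 0.47 and the adjusted p from 7.51e-05 to 0.134. It ended without any single one of the 3 untreated WT libraries, the 3 libraries of the labelled knockout with PDGF-BB, and replicates 2 and 3 of the untreated labelled knockout, at adjusted p from 0.0850 to 0.134. It also ended with no filter (0.0938), with TMM scaling (0.0648), with edgeR (0.0747) and with the replicate number as a block (0.0833). Without replicate 1 of WT with PDGF-BB it was 0.33 with an adjusted p of 0.00498.

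Tgfb3 (ENSMUSG00000021253; chromosome 12, minus strand, 86056745 to 86079041) followed Tgfb2 at lower levels. It stood at 89.8, 95.6 and 84.4 CPM in untreated WT, at 55.6, 49.9 and 49.0 CPM in WT with PDGF-BB, at 112, 114 and 112 CPM in the untreated labelled knockout and at 66.8, 67.2 and 66.8 CPM in the labelled knockout with PDGF-BB. No 2 groups overlapped. The fall with PDGF-BB was -0.79 in WT (SE 0.07, limma adjusted p = 4.93e-07) and -0.74 in the labelled knockout (SE 0.07, adjusted p = 2.17e-06), and the interaction was 0.05 with a 95% interval of -0.15 to 0.26. The labelled knockout was higher by 0.32 without PDGF-BB (adjusted p = 0.00226) and by 0.37 with it (adjusted p = 0.000829). Of its exonic bases 12.4% also lie in exons of genes on the other strand, and the strand setting of the counting is not given in the sources used here.

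**Figure D2:**
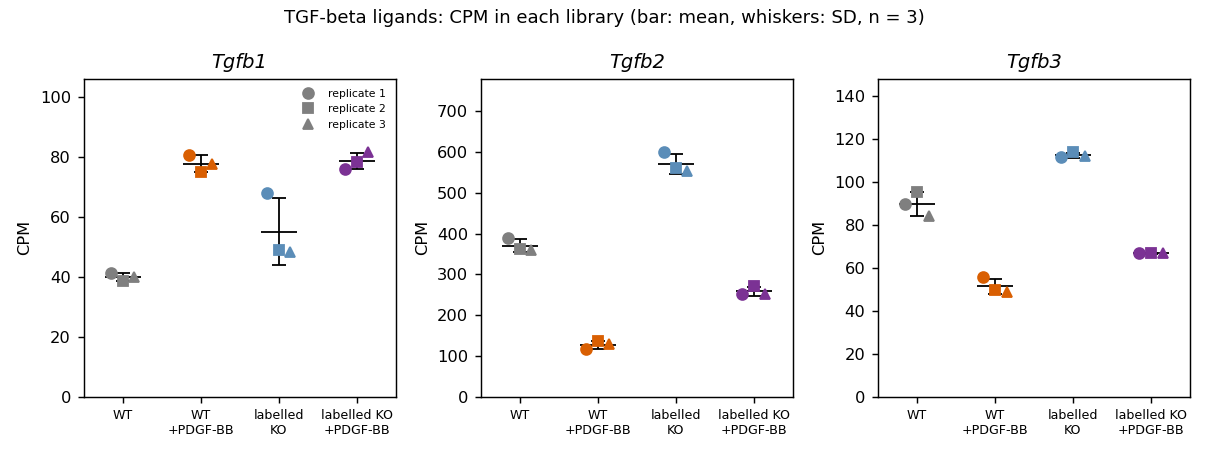
CPM of Tgfb1, Tgfb2 and Tgfb3 in each of the 12 libraries by group, with bars at the mean and whiskers of 1 SD (n = 3). Tgfb1 is between 75.1 and 81.7 CPM in all 6 libraries with PDGF-BB, whereas Tgfb2 and Tgfb3 are lower with PDGF-BB than without it in both genotypes.

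The mix of ligand transcripts changed with these shifts. By the deposited length, Tgfb2 made up 61.7% ± 0.944 (SD, n = 3) of the summed CPM per kilobase of the 3 ligands in untreated WT and 32.8% ± 2.71 with PDGF-BB, while Tgfb1 went from 15.7% ± 0.464 to 47.1% ± 1.61. In the labelled knockout Tgfb2 went from 65.6% ± 0.886 to 47.4% ± 1.24 and Tgfb1 from 14.8% ± 2.11 to 34.0% ± 1.11. Tgfb3 stayed between 18.2% and 24.2% in all 12 libraries. The summed level of the 3 ligands was 117 ± 3.85 CPM per kilobase in untreated WT, 75.9 ± 0.444 with PDGF-BB, 170.2 ± 9.79 in the untreated labelled knockout and 106 ± 2.51 in the labelled knockout with PDGF-BB. These shares were not tested, and the place of Tgfb1 in them depends on the length as said above.

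The 250 bases before the start of Tgfb1 and Tgfb2 are printed because these 2 ligands moved in opposite directions under PDGF-BB. The sequences are from RefSeq on GRCm38.p6, read 5′ to 3′ on the gene's strand, and capitals mark every match to a motif searched on both strands.
Tgfb1, chr7:25686752-25687001, plus strand: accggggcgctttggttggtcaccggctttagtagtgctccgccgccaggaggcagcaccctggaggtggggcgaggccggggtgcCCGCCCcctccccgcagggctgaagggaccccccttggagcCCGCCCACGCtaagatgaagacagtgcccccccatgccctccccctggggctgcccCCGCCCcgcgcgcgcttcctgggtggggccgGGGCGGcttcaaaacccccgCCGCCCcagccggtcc
Tgfb2, chr1:186705990-186706239, minus strand: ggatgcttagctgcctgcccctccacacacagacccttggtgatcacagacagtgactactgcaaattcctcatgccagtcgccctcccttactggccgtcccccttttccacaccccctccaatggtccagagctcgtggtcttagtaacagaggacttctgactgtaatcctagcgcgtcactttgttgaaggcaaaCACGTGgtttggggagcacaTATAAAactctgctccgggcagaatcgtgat

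The windows differed in composition and in the motifs they held. The Tgfb1 window had a GC content of 75.2% and that of Tgfb2 53.6%, against a median of 52.4% over 32851 RefSeq promoters of the same length. The Tgfb1 window held 5 matches to the GC box (GGGCGG, in 32.7% of these promoters) and 1 to the EGR motif (GCGTGGGCG, in 0.536%), which overlapped a GC box. The Tgfb2 window held 1 E-box (CACGTG, in 6.02%) and 1 TATA box (TATAAA, in 12.4%), and it also covers an exon of Gm29491 on the other strand. Neither window held AP-1 (TGANTCA, in 6.75%), CRE (TGACGTCA, in 1.55%), TEAD (GGAATG, in 12.6%), the SMAD palindrome (GTCTAGAC, in 0.167%) or the CArG box (in 1.47%). Windows were found for 8 of the 10 genes, 10 windows in all. Tgfbr1 and Ltbp1 had 2 each. The first window of Ltbp1 held 1 CRE match. GC boxes also lay in the first window of Tgfbr1 and in the windows of Ltbp2 and Tgfbi. These matches describe the letters only. The motifs and the 2 printed windows were chosen after the matches were seen, so the percentages are no test of them.

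By limma-trend 0 of the 3 receptor genes were called for PDGF-BB in either genotype, and 0 at an unadjusted p under 0.05. In WT, edgeR called 2 higher and DESeq2 called 1, and in the labelled knockout both called 0. All 3 differed by label without PDGF-BB. Tgfbr1 (ENSMUSG00000007613; chromosome 4, plus strand, 47353222 to 47414931), the type I kinase, stood at 62.8, 55.9 and 60.6 CPM in untreated WT and at 56.1, 73.5 and 69.6 CPM in WT with PDGF-BB. The labelled knockout had 74.1, 73.2 and 77.7 CPM untreated and at 72.2, 74.7 and 73.1 CPM with PDGF-BB. Replicate 1 was the low library of WT with PDGF-BB. Without PDGF-BB the labelled knockout was higher by 0.32 (SE 0.09, limma adjusted p = 0.0130), a call that ended without replicate 2 of untreated WT (adjusted p = 0.0618) or replicate 3 of the untreated labelled knockout (adjusted p = 0.0528). With PDGF-BB the difference by label was 0.15, the groups overlapped and it was not called (limma adjusted p = 0.200). DESeq2 called it, at 0.27 (adjusted p = 0.0372). The PDGF-BB change in WT was 0.14 (adjusted p = 0.189), and it was 0.23 (adjusted p = 0.0490) with edgeR and 0.26 (adjusted p = 0.000837) without replicate 1 of WT with PDGF-BB. The interaction was then -0.29 (adjusted p = 0.0218), against -0.17 (adjusted p = 0.486) with all libraries.

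Tgfbr2 (ENSMUSG00000032440; chromosome 9, minus strand, 116084293 to 116175360), the type II kinase that binds the ligand, was the most abundant receptor transcript per kilobase in all 4 groups. It stood at 302, 305 and 295 CPM in untreated WT, at 227, 293 and 299 CPM in WT with PDGF-BB, at 197, 205 and 202 CPM in the untreated labelled knockout and at 208, 213 and 219.9 CPM in the labelled knockout with PDGF-BB. Every library of the labelled knockout was below every WT library, the closest being 219.9 and 227 CPM. The difference was -0.58 without PDGF-BB (SE 0.09, limma adjusted p = 0.000223) and -0.34 in its presence (SE 0.09, adjusted p = 0.00893). The second call ended with TMM scaling, quantile normalization, edgeR, DESeq2 and a fit of the compared groups alone, at adjusted p from 0.0632 to 0.0993 and a change of -0.22 with DESeq2, and was -0.47 (adjusted p = 9.82e-08) without replicate 1 of WT with PDGF-BB. The PDGF-BB change was -0.15 in WT (adjusted p = 0.159) and 0.09 in the labelled knockout (adjusted p = 0.456). The change in WT passed the test with quantile normalization (-0.25, adjusted p = 0.0385) and without replicate 3 of WT with PDGF-BB (-0.22, adjusted p = 0.0458), and without replicate 1 it was -0.02 (adjusted p = 0.673). After removal of each library's trend with exon length it was 0.15 in WT (adjusted p = 0.0202), the opposite direction, and 0.20 in the labelled knockout (adjusted p = 0.00546).

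Tgfbr3 (ENSMUSG00000029287; chromosome 5, minus strand, 107106570 to 107289629), the betaglycan co-receptor, showed the largest difference by label among the receptors. It stood at 67.4, 69.0 and 71.6 CPM in untreated WT and at 67.3, 87.8 and 91.9 CPM in WT with PDGF-BB, against 24.8, 20.5 and 19.6 CPM in the untreated labelled knockout and 19.5, 20.1 and 19.1 CPM in the labelled knockout with PDGF-BB. The genotypes were far apart, with the highest library of the labelled knockout at 24.8 CPM and the lowest WT library at 67.3 CPM. The difference was -1.64 without PDGF-BB (SE 0.11, limma adjusted p = 1.64e-07) and -2.01 in its presence (SE 0.11, adjusted p = 2.68e-08), so that the CPM was 3.21 and 4.21 times higher in WT. The PDGF-BB change in WT was 0.23 (adjusted p = 0.0902), and without replicate 1 of WT with PDGF-BB it was 0.37 (adjusted p = 0.000638) with an interaction of -0.50 (adjusted p = 0.00559). It was also called with TMM scaling (0.31, adjusted p = 0.0307), edgeR (0.33, adjusted p = 0.0201) and DESeq2 (0.31, adjusted p = 0.0267).

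**Figure D3:**
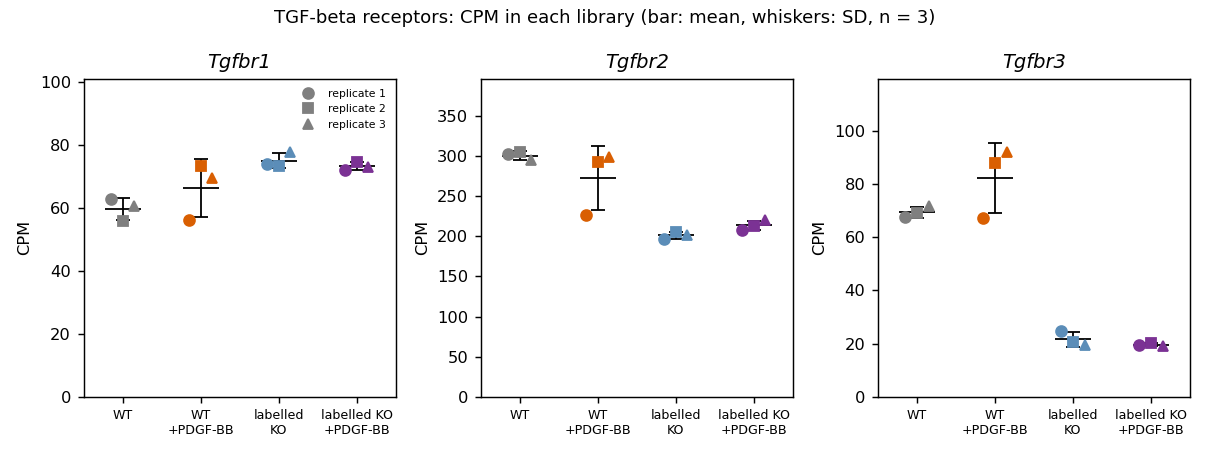
CPM of Tgfbr1, Tgfbr2 and Tgfbr3 in each of the 12 libraries by group, with bars at the mean and whiskers of 1 SD (n = 3). Replicate 1 of WT with PDGF-BB is the lowest of its group for all 3 genes, and Tgfbr3 is at 19.1 to 24.8 CPM in the 6 libraries labelled knockout.

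The receptor mix also differed by label. By the deposited length, Tgfbr3 made up 19.3% ± 0.682 (SD, n = 3) of the summed CPM per kilobase of the 3 receptors in untreated WT and 8.57% ± 1.15 in the untreated labelled knockout, and Tgfbr1 made up 17.6% ± 0.973 and 31.4% ± 0.870. With PDGF-BB, Tgfbr3 made up 23.0% ± 0.490 in WT and 7.59% ± 0.250 in the labelled knockout. The share of Tgfbr2 lay between 57.1% and 64.1% in all 12 libraries. These shares were not tested.

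Among the LTBPs, Ltbp1 and Ltbp2 differed by label in opposite directions. Ltbp1 (ENSMUSG00000001870; chromosome 17, plus strand, 75005568 to 75392512), which binds the latent complex of all 3 ligands, stood at 2038, 1912 and 2004 CPM in untreated WT and at 1611, 1740.2 and 1819 CPM in WT with PDGF-BB. In the labelled knockout it stood at 1479, 1374 and 1395 CPM untreated and at 1298, 1269 and 1230 CPM with PDGF-BB. No 2 groups overlapped. The labelled knockout was lower. The difference without PDGF-BB was -0.49 (SE 0.07, limma adjusted p = 0.000205), and in its presence -0.44 (SE 0.07, adjusted p = 0.000453).

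The PDGF-BB change of Ltbp1 was smaller and less firm. It was -0.20 in WT (SE 0.07, limma adjusted p = 0.0279) and -0.16 in the labelled knockout (SE 0.07, adjusted p = 0.0932). The call in WT ended in 10 of 25 alternatives, among them TMM scaling (-0.12), edgeR (-0.12), DESeq2 (-0.14), and leaving out replicate 1 or 3 of untreated WT or replicate 2 of WT with PDGF-BB. After removal of the exon length trend it was 0.04 (adjusted p = 0.573). The change in the labelled knockout was called without replicate 1 of WT with PDGF-BB, at -0.16 (adjusted p = 0.0077). It was also called in a fit of the compared groups alone, at -0.16 (adjusted p = 0.0124). With library weights it was called at -0.14, by the default estimator (adjusted p = 0.00569), which did not converge, and gene by gene (adjusted p = 0.0108). In 21 of 25 alternatives it was not called.

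Ltbp2 (ENSMUSG00000002020; chromosome 12, minus strand, 84783212 to 84876532) is the family member known not to bind latent TGF-beta, and it takes part in elastic fibre and microfibril assembly. It stood at 274, 241 and 256 CPM in untreated WT and at 155, 214 and 224 CPM in WT with PDGF-BB, against 1137, 889 and 864 CPM in the untreated labelled knockout and 717, 699 and 695 CPM in the labelled knockout with PDGF-BB. Every library of the labelled knockout was above every WT library. The difference was 1.89 without PDGF-BB (SE 0.13, limma adjusted p = 1.74e-07) and 1.85 in its presence (SE 0.13, adjusted p = 2.15e-07), CPM ratios of 3.75 and 3.56. Of the exonic bases of Ltbp2, 9.34% also lie in exons of the antisense gene D030025P21Rik.

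Ltbp2 fell with PDGF-BB, with a change of -0.40 in WT (SE 0.13, limma adjusted p = 0.0181) and of -0.44 in the labelled knockout (SE 0.13, adjusted p = 0.0146). Both calls rested in part on single libraries. The call in WT ended without replicate 1 of untreated WT (adjusted p = 0.0704), and the change was -0.23 (adjusted p = 0.0236) without replicate 1 of WT with PDGF-BB. It also ended with TMM scaling (-0.32), edgeR (-0.30) and the exon length trend removed (-0.14). The call in the labelled knockout ended without replicate 1 of its untreated group, the highest library of all, at -0.32 (adjusted p = 0.0761).

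Ltbp3 (ENSMUSG00000024940; chromosome 19, plus strand, 5740904 to 5758532), which also binds latent TGF-beta, fell with PDGF-BB. It stood at 999, 934 and 976 CPM in untreated WT, at 736, 799.6 and 794 CPM in WT with PDGF-BB, at 1089, 883 and 910.4 CPM in the untreated labelled knockout and at 716, 736 and 695 CPM in the labelled knockout with PDGF-BB. All 6 libraries with PDGF-BB were below all 6 without it. The fall was -0.32 in WT (SE 0.08, limma adjusted p = 0.00434) and -0.42 in the labelled knockout (SE 0.08, adjusted p = 0.00113). The difference by label was -0.02 without PDGF-BB, with a 95% interval of -0.20 to 0.16, and -0.12 with it, with an interval of -0.29 to 0.06. With PDGF-BB the groups did not overlap, though the closest libraries both round to 736 CPM. The difference was called with library weights, at -0.16 (adjusted p = 6.72e-05) by the default estimator, which did not converge, and at -0.15 (adjusted p = 0.00667) gene by gene. With the exon length trend removed the fall in WT was -0.15 (adjusted p = 0.0533).

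**Figure D4:**
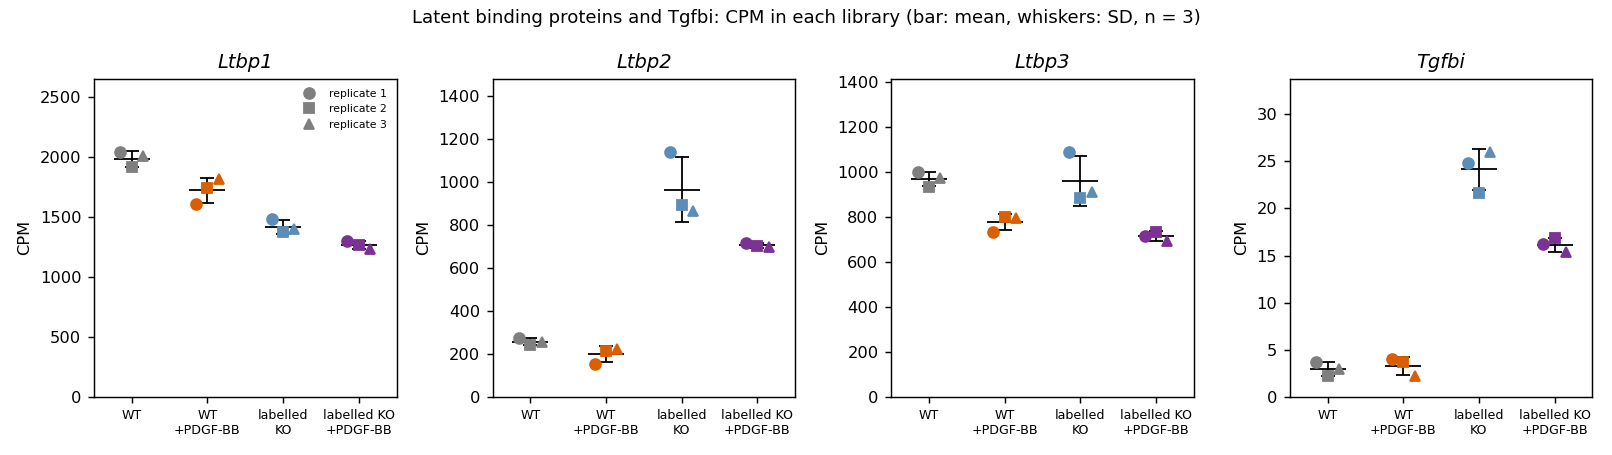
CPM of Ltbp1, Ltbp2, Ltbp3 and Tgfbi in each of the 12 libraries by group, with bars at the mean and whiskers of 1 SD (n = 3). Ltbp2 and Tgfbi are higher in all 6 libraries labelled knockout than in any WT library, Ltbp1 is lower, and Ltbp3 is separated by PDGF-BB.

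By the deposited length, Ltbp1 made up 57.0% ± 0.196 (SD, n = 3) of the summed CPM per kilobase of the 3 LTBPs in untreated WT and 39.5% ± 2.15 in the untreated labelled knockout. Ltbp2 made up 7.27% ± 0.226 and 26.3% ± 1.58. The summed level of the 3 genes was 522 ± 18.4 CPM per kilobase in untreated WT and 539.8 ± 51.7 in the untreated labelled knockout, a difference smaller than the SD of the second group. With PDGF-BB the sums were 437 ± 27.5 and 432 ± 9.30. These shares and sums were not tested.

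Tgfbi (ENSMUSG00000035493; chromosome 13, plus strand, 56609523 to 56639562), an integrin-binding matrix protein, had the largest difference by label of the 10 genes. It was at 3.72, 2.24 and 2.98 CPM in untreated WT and at 4.01, 3.66 and 2.21 CPM in WT with PDGF-BB, from 36 to 66 reads a library. In the labelled knockout it was at 24.8, 21.7 and 26.0 CPM untreated and at 16.2, 16.9 and 15.4 CPM with PDGF-BB, from 246 to 467 reads. The difference was 2.67 without PDGF-BB (SE 0.17, limma adjusted p = 9.23e-08) and 2.02 in its presence (SE 0.17, adjusted p = 1.01e-06), CPM ratios of 8.11 and 4.91. It fell with PDGF-BB in the labelled knockout, by a log2 change of -0.55 (SE 0.17, adjusted p = 0.0186), a call that ended without replicate 1 (adjusted p = 0.0576) or 3 (adjusted p = 0.0665) of the untreated group or replicate 3 of the treated group (adjusted p = 0.0636). The change in WT was 0.10, with a 95% interval of -0.27 to 0.46, or -0.03 without replicate 1 of WT with PDGF-BB. The interaction was -0.65, with a 95% interval of -1.16 to -0.13, and was not called (limma adjusted p = 0.153). It was called in 4 of 24 alternatives. These were quantile normalization (-0.88, adjusted p = 0.0479) and leaving out replicate 3 of WT with PDGF-BB (-0.84, adjusted p = 0.0252). The other calls came with library weights, at -0.75 (adjusted p = 0.000468) by the default estimator, which did not converge, and -0.64 (adjusted p = 0.0154) gene by gene.

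The other genes of the pathway are given from lists of known members, by counts. Of all tested genes 25% were called higher and 34.4% lower for PDGF-BB in WT, and 17.6% and 24.8% in the labelled knockout. Shares by label were 9.15% and 24.8% without PDGF-BB and 10.6% and 26.6% with it, and for the interaction 2.25% and 1.68%. Under TMM scaling 4189 of the 14202 tested genes rose with PDGF-BB and 4175 fell in WT, and 2989 and 3071 in the labelled knockout. By label 1930 were then higher and 2034 lower without PDGF-BB, and 1928 and 2139 with it. Of 17 genes that activate or hold latent TGF-beta, 15 were tested. With PDGF-BB 6 rose and 3 fell in WT, and 7 rose and 5 fell in the labelled knockout, or 7 and 4, and 8 and 6, without replicate 1 of WT with PDGF-BB. Lrrc32 (GARP), which tethers latent TGF-beta to the cell surface, rose from 44.8 to 181 CPM in WT (1.96, limma adjusted p = 1.09e-07) and from 23.9 to 79.9 CPM in the labelled knockout (1.70, adjusted p = 9.97e-07). The plasminogen activators Plat (1.04 in WT and 1.20 in the labelled knockout) and Plau (0.99 and 1.20) also rose. Thbs1, the thrombospondin that can activate latent TGF-beta, fell from 19282 to 9103 CPM in WT (-1.09, adjusted p = 1.36e-05).

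Between genotypes 4 of these 15 genes were higher and 3 lower without PDGF-BB, and 8 were higher and 3 lower with it. Itgb3, the beta subunit of the vitronectin receptor, was higher by 1.10 without PDGF-BB, and Ltbp4, the remaining LTBP, by 1.02 without it and 0.82 with it. Lrrc32 was lower (-0.88 and -1.15), as was Plau (-0.66 without PDGF-BB). Itgb8, the subunit of an integrin that activates latent TGF-beta, was called for the interaction (1.08, limma adjusted p = 0.0492) and was higher by 0.87 with PDGF-BB. Without replicate 1 of WT with PDGF-BB, 7 were higher and 4 lower between genotypes without PDGF-BB, and 3 were positive and 2 negative for the interaction. Under TMM scaling the first of these comparisons had 7 higher and 2 lower. Itgb8 was the 1 gene of the list called for the interaction by limma-trend. The list had 0 such calls under TMM scaling, 1 with edgeR or quantile normalization and 2 with DESeq2.

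All 8 matrix proteins that bind TGF-beta or its latent complex were tested. With PDGF-BB 1 rose and 6 fell in WT, and 1 rose and 2 fell in the labelled knockout, or 4 fell there without replicate 1 of WT with PDGF-BB. The small proteoglycans Aspn (-0.84 in WT, -1.13 in the labelled knockout) and Fmod (-0.66 and -0.58) fell in both, and Fbn1, the fibrillin to which LTBPs bind, fell in WT (-0.55, limma adjusted p = 0.00829). Fbn2 rose in both, from 2.04 to 4.34 CPM in WT and more so in the labelled knockout (1.94), and was called for the interaction (1.15, adjusted p = 0.014). By label, Fmod (-1.36 without PDGF-BB and -1.28 with it) and Aspn (-1.10 and -1.39) were lower. Without PDGF-BB limma-trend called 0 of the 8 higher, with 0 also at an unadjusted p under 0.05, against 1 by edgeR and 2 by DESeq2. With PDGF-BB, Fbn2 was the 1 gene called higher (1.31), against 3 genes under TMM scaling.

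Of 12 other receptors and co-receptors of the wider family, 11 were tested. With PDGF-BB 4 rose and 5 fell in WT and 3 rose and 4 fell in the labelled knockout, or 4 and 6, and 3 and 6, without replicate 1 of WT with PDGF-BB. Acvr1, a type I receptor for BMPs and activins, rose by 0.60 in WT and 0.45 in the labelled knockout, Bmpr2 fell there by -0.55, and Cd109, a TGF-beta co-receptor, rose by 0.64 in the labelled knockout. By label 3 were higher and 1 lower without PDGF-BB, or 5 and 2 without replicate 1 of WT with PDGF-BB, and 6 were higher and 1 lower with it. Acvrl1 (ALK1), a type I receptor best known in endothelium, was higher by 0.83 and 0.67, and Bmpr1b went from 2.57 to 9.50 CPM without PDGF-BB. Endothelial markers were higher by label too, and their part in the difference of Acvrl1 was not tested. For the interaction limma-trend called 0 of the 11, with 0 at an unadjusted p under 0.05, and edgeR and DESeq2 called 0. Under TMM scaling 0 were lower by label in either condition.

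Of 22 SMADs and their regulators, 21 were tested. With PDGF-BB 4 of the 21 rose and 7 fell in WT, beside 25% and 34.4% of all tested genes. These counts were 4 and 4 under TMM scaling, edgeR and DESeq2 alike, and 6 and 7 without replicate 1 of WT with PDGF-BB. In the labelled knockout 4 rose and 4 fell, or 5 and 9 without replicate 1 of WT with PDGF-BB. Smad9 (-1.69 and -1.54) and the inhibitory Smad6 (-0.82 and -0.89), both of the BMP branch, fell in each genotype. By label 5 were higher and 2 lower without PDGF-BB, or 5 and 6 without that library, and 6 were higher and 5 lower with it, where TMM scaling gave 6 and 3. Smad3, which carries the TGF-beta signal, went from 197 to 105 CPM without PDGF-BB (-0.90, limma adjusted p = 5.06e-06) and from 195 to 90.5 CPM with it (-1.09, adjusted p = 8.20e-07). The inhibitory Smad7 was higher by 0.75 and 0.67, and Pmepa1, a feedback inhibitor, by 0.43 and 0.79, with an interaction of 0.36 (adjusted p = 0.0456). Pmepa1 was the 1 gene of the list called for the interaction. The list had 0 such calls under TMM scaling, 0 with edgeR, and 1 with DESeq2 or quantile normalization. Without replicate 1 of WT with PDGF-BB it had 1 positive and 3 negative.

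Of 12 activins, follistatins and related ligands, 9 were tested. With PDGF-BB 3 rose and 3 fell in WT, and 4 rose and 2 fell in the labelled knockout, or 3 and 4, and 4 and 3, without replicate 1 of WT with PDGF-BB. Inhbb, an activin and inhibin beta subunit, fell from 165 to 35.0 CPM in WT (-2.20, limma adjusted p = 2.13e-10) and from 58.0 to 12.9 CPM in the labelled knockout (-2.08, adjusted p = 1.22e-09). By label 3 were higher and 5 lower without PDGF-BB, and 3 were higher and 4 lower with it, with Inhbb at -1.49 and -1.37 and Gdf15 at 1.33 and 0.99. Fst, the activin-binding follistatin, fell in WT (-0.48), rose in the labelled knockout (0.32) and was called for the interaction (0.80, adjusted p = 0.000431), as was Inhba (0.61, adjusted p = 0.00713).

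All 31 genes of a list of known TGF-beta targets were tested. By label 19 were higher and 4 lower without PDGF-BB, with a median of 0.43 against -0.13 for all tested genes, and 19 were higher and 5 lower with it, with a median of 0.61 against -0.14. Without replicate 1 of WT with PDGF-BB these counts were 23 and 4, and 22 and 5, and under TMM scaling 23 and 2, and 21 and 4. Edn1 (endothelin 1) was higher by 2.55 and 3.26, Eln (elastin) by 1.63 and 1.46 and Col1a1 by 1.45 and 1.35, while Comp, a thrombospondin family matrix protein, was lower (-3.32 and -3.36). Several genes of this list are also made by the other cell types whose summed markers moved with the label: the endothelial sum was 722 to 833 against 151 to 163 CPM and the fibroblast sum 1401 to 1663 against 637 to 662 CPM without PDGF-BB. Of the 8 tested fibroblast markers, however, 2 were higher and 2 lower without PDGF-BB, and Col14a1 alone ran from 117 to 1406 CPM. The part of these cell types in the target counts was not tested.

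With PDGF-BB 10 of the 31 targets rose and 13 fell in WT, with a median of -0.16, and 11 rose and 11 fell in the labelled knockout, with a median of -0.01. These counts were 10 and 15, and 11 and 14, without replicate 1 of WT with PDGF-BB. Timp1 (2.62 and 1.77) and Bhlhe40 (2.55 and 1.73) rose and Nox4 (-1.80 and -1.52) fell in both genotypes. For the interaction 3 were positive and 2 negative, among them Angptl4 (0.92, limma adjusted p = 0.000431), Bhlhe40 (-0.82, adjusted p = 0.0124) and Edn1 (0.71, adjusted p = 0.0288), and without replicate 1 of WT with PDGF-BB 7 were positive and 3 negative.

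**Figure D5:**
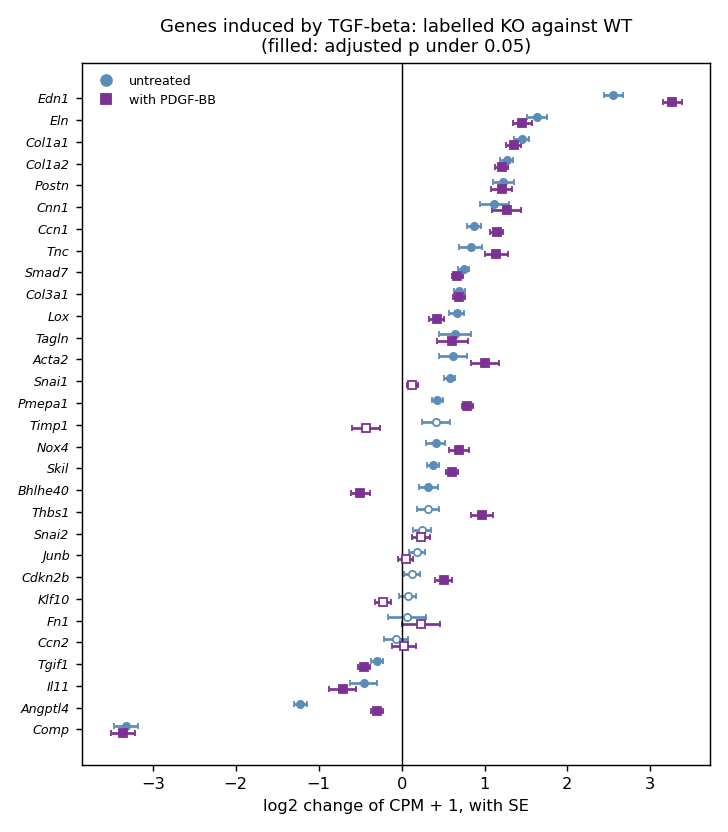
Log2 change of CPM + 1 between the labelled knockout and WT for 30 of the 31 known TGF-beta targets, without PDGF-BB (circles) and with it (squares), with SE bars. Filled symbols mark an adjusted p under 0.05. Most of those drawn lie to the right of 0, with Edn1 farthest right and Comp farthest left.

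The 10 genes fell into patterns that differed from gene to gene. Over the 12 libraries, log2(CPM + 1) of Tgfb2 and Tgfb3 had a Pearson r of 0.97, Tgfb1 had r of -0.63 with Tgfb2 and -0.69 with Tgfb3, and Tgfbr2, Tgfbr3 and Ltbp1 had r from 0.89 to 0.91 with each other. Ltbp2 and Tgfbi had an r of 0.95 with each other and of -0.94 and -0.96 with Tgfbr3. The libraries share 4 groups, so these values largely follow the differences between groups and are given as a description. Among all other tested genes except predicted gene models and clone names, the closest to Tgfb1 were Sardh (0.98) and Cx3cl1 (0.98), to Tgfb2 Pkp4 (0.99) and Pde5a (0.99), and to Tgfb3 Serpinb6b (0.98) and Casp12 (0.98). The closest to Tgfbr1 were Impad1 (0.93) and Edem3 (0.92), to Tgfbr2 Igf2bp3 (0.98) and Gna13 (0.98), and to Tgfbr3 Rgma (0.99) and Clpb (0.99). The closest to Ltbp1 were Prkg1 (0.99) and Nhs (0.99), to Ltbp2 Gxylt2 (1.00) and Cd93 (1.00), to Ltbp3 Adamts9 (0.98) and Pcsk5 (0.98), and to Tgfbi was Lratd2 (0.99). Cd93 is best known as an endothelial gene, and it ranged from 12.9 to 206 CPM. The part of endothelial cells in its correlation with Ltbp2 was not tested.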

How the data were processed

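Per the submitters' processing notes, the authors aligned reads with HISAT2 and counted them with HTSeq on mm10, with no version and no strand setting given here. The table's header names GRCm38.p6. Its deposited values are CPM, although it is named for FPKM, and 100% of them were whole multiples of 1 read within 0.001 read, so reads were recovered. The table also gives an exon length in bases per gene, another deposited value, which was used for levels per kilobase.

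Genes were kept at 1 CPM or more in at least 3 libraries, a pseudocount of 1 CPM was added, and limma-trend (limma 3.58.1, R 4.3.3) was fitted to all 12 libraries with 1 mean per group. Intervals are 95%, and SE are from that fit. Alternatives, run on the recovered reads, were DESeq2 1.42.0 and edgeR 4.0.16; run on CPM, they were other pseudocounts (0.5 and 0.1 CPM), filters, scalings, library weights, a replicate block, removal of the exon length trend, the compared groups alone, and each library left out in turn. The procedure was also run on simulated data, with the outcome not reported here. The simulation held no library apart from its group and no trend with exon length. It therefore cannot speak to the calls that moved with these. Positions and overlaps are from the GENCODE annotation of GRCm38. Figures were drawn with matplotlib 3.10.9.

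All 10 genes are named, as well as up to 4 called genes per list and comparison with the largest change, Tigar, and the 2 genes with the highest Pearson r to each of the 10, except that 2 genes this rule would name are not reported here, one of them left out of the plot of TGF-beta targets. Members and lists were chosen with earlier results of these data known. The motifs searched and the 2 promoters printed were chosen after the changes and the motif matches were seen. Some departures from the plan followed from the data. The planned main length was that of all exons joined, but the deposited length turned out to be another (that of the longest transcript for 8 of the 10 genes), so the deposited length is the main one and the joined exons were added. Library weights were planned with limma's default estimator. It stopped without converging and gave replicate 2 of WT with PDGF-BB a weight of 56.1, so the gene-by-gene estimator was added after the default's counts had been seen, and both are reported. The list counts without replicate 1 of WT with PDGF-BB, at an unadjusted p and by other scalings and tools were added after seeing the data.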

Additional observations from a re-analysis of the deposited data

Results flagged for a closer look

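The PDGF-BB response of Tgfb2 differed between the genotypes by the interaction term of the limma-trend fit, at 0.395 on the log2 scale (SE 0.10, adjusted p = 0.0453). The fall was smaller in the labelled knockout than in WT. The call ended in 12 of 24 alternatives, with adjusted p from 7.51e-05 to 0.134. Leaving out the PDGF-BB-treated WT library farthest from its group, replicate 1, gave 0.33 (adjusted p = 0.00498). No test of a single far value was run on the genes, whose groups have only 3 libraries each.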

How the results depend on the processing

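Of 1240 results for the 10 genes (25 alternatives for each comparison of 2 groups, 24 for the interaction), 1141 kept their direction and their side of the threshold, 23 changed sign without being called either way, 37 lost a call and 37 gained one. The other 2, called in one fit and of opposite sign in the other, came with the exon length trend removed, for PDGF-BB in WT: Tgfbr2 at 0.154 and Ltbp1 at 0.0441. For all tested genes, library weights gave 8006 calls (default estimator, not converged) or 7666 (gene by gene) against 4823 between genotypes without PDGF-BB. With PDGF-BB, the default weights gave 10265 calls and the compared groups alone 3438, against 5284. The interaction had 557 calls, against 371 with no filter, 4720 and 2814 with the default and gene-by-gene weights, 1131 with the length trend removed, 905 with DESeq2, and 272 to 1548 with a library left out. Of the 10 genes, 1 was called for the interaction, against 0 with no filter, TMM scaling, the replicate block or edgeR, 2 with quantile normalization, 5 with either kind of weights, 3 with the length trend removed, and 0 to 3 with a library left out. The causes were not tested. After removal of group means, same-numbered libraries correlated between -0.23 and 0.18 and differently numbered ones between -0.34 and 0.35. With ranges that overlap in this way, the correlations cannot show whether the replicate numbers pair the samples. The replicate block ended the Tgfb2 interaction and no other call of the 10 genes. Tgfbi in WT, at 36 to 66 reads a library, has the least precision.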
